A study of Homo sapiens with 32 samples.

Results

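A group of 34 genes of cholesterol and fatty acid metabolism were followed in leukaemia cells given inhibitors of KDM1A, a histone demethylase that works in repressor complexes. The members were taken by gene symbol from a fixed list, and all 34 were found among the 23073 genes of the deposited expression table. By role they were 17 enzymes of sterol synthesis, 6 genes that control SREBP or carry sterol, 6 enzymes of fatty acid synthesis, and 5 genes of sterol efflux and its nuclear receptors (LXR). With an inhibitor, enzymes of sterol and fatty acid synthesis stood lower and no member passed the test as higher in the fit reported. Under some other settings 1 member was called higher in a set. Of the 5 genes of efflux and LXR 4 were tested and none passed in either direction, though both efflux pumps lay under 1 FPKM in Kasumi-1, where a change in them could not be weighed.

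RNA was sequenced from 32 cultures of Kasumi-1 and SKNO-1, established lines of acute myeloid leukaemia with the RUNX1-RUNX1T1 fusion. Each line received 0.1% DMSO, or RN-1, GSK690 or GSK690* at 1 µM, and was harvested at 24 or 72 h. Each of these 16 groups held 2 cultures labelled as biological replicates, and none carried a genetic change beyond that of its line. RN-1 is an irreversible and GSK690 a reversible inhibitor of KDM1A, while GSK690* is labelled an inactive isomer of GSK690. The medium of Kasumi-1 held 20% serum and that of SKNO-1 held 10% serum and 10 ng/mL GM-CSF, so line and medium cannot be told apart, and all cells had serum lipids. For SKNO-1 the titles give 72 h where the treatment protocol gives 4 days. Line and time together give 4 sets of 8 libraries, and wherever 4 values are listed they stand for Kasumi-1 and then SKNO-1, the 24 h set ahead of the 72 h set. The cultures were bulk samples, in which fewer cells of a type and less RNA per cell cannot be told apart.

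The cell line named for the 72 h libraries differed between the labels and the authors' own sheet for all 16 of them, and the labels were followed. Averaged per 72 h library, Pearson r across genes ran from 0.971 to 0.983 against 24 h libraries of the labelled line and from 0.845 to 0.868 against the other. FPKM summed to 332648 to 395945 per library, of which the 34 members took 0.246% to 0.615%. The values are FPKM with no read counts, and depth is unknown. RUNX1T1 (21.2 to 53.5 FPKM), MPO (1218 to 6612 FPKM) and KIT (56.2 to 319 FPKM) were present in every library, as were CD33 and PTPRC. CD34 was as low as 0.117 FPKM in SKNO-1. Lists of other cell types were read as sums over their genes. The 3 hepatocyte markers summed to at most 0.684 FPKM and the 6 markers of T and NK cells to 0.476 to 4.76 FPKM. The 5 B cell markers summed to 7.37 to 63.8 FPKM, with CD79B at 4.49 to 61.1 FPKM and MS4A1 listed at 0 throughout. The 7 markers of adherent cells summed to 61.0 to 83.5 FPKM in Kasumi-1 and at most 0.338 FPKM in SKNO-1, and of these EPCAM reached 83.5 FPKM while no other passed 0.197 FPKM. Of the 8 neutrophil markers PRTN3, AZU1 and ELANE, granule genes that myeloblasts also express, reached 927, 380 and 361 FPKM, and MMP8 was listed at 0.

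Cells make cholesterol from acetyl-CoA through mevalonate, squalene and lanosterol. When sterol in the endoplasmic reticulum is low, SCAP carries the SREBP factors (SREBF1, SREBF2) to the Golgi, where they are cleaved and go on to switch on these enzymes. INSIG proteins hold SCAP back when sterol is high, and LXR receptors, which sense oxidised sterols, switch on efflux pumps. SREBP factors bind a sterol element in promoters, often beside NF-Y, which binds CCAAT, and SP1, which binds GC boxes. Dividing leukaemia cells need both sterols and fatty acids for membranes.

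The promoters below are shown because their genes are the members called lower in at least 3 of the 4 sets of line and time that hold CCAAT in the table used (FDPS, IDI1, NSDHL), and because SREBF2 was the only member with a match to the sterol element. They are the 250 bases before the start in RefSeq, build GRCh38.p14, 5′ to 3′ on the strand of the gene. Capitals mark CCAAT or its complement ATTGG, and in SREBF2 also the sterol element. The choice of SREBF2 and of these 3 genes was made after their values were seen.
FDPS: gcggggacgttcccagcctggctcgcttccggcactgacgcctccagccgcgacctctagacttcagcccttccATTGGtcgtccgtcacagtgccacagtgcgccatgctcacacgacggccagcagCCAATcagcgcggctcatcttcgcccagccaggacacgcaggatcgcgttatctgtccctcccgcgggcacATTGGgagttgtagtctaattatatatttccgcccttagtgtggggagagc
IDI1: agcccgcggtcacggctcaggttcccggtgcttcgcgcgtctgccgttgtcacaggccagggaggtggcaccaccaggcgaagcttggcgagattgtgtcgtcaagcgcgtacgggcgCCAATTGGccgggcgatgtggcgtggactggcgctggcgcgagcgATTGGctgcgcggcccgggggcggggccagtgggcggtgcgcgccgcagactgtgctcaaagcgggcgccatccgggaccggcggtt
NSDHL: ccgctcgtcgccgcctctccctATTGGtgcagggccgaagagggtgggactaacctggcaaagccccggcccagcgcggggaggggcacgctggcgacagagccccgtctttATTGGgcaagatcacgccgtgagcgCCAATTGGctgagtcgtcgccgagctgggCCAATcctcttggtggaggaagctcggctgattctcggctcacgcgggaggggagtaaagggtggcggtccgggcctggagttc
SREBF2: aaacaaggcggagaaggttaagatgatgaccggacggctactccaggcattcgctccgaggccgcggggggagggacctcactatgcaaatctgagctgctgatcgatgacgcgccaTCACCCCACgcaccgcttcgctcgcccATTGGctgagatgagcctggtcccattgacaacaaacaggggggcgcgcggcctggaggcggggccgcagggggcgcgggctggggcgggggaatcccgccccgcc
They lie at chr1:155308616-155308865 (FDPS, plus strand), chr10:1048887-1049136 (IDI1, minus strand), chrX:152830813-152831062 (NSDHL, plus strand) and chr22:41832855-41833104 (SREBF2, plus strand).

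FDPS, farnesyl diphosphate synthase, has 3 CCAAT matches at 176, 122 and 51 bases before its start. IDI1, which isomerises isopentenyl diphosphate, has 3 in the promoter shown, and 0 and 2 in the other 2 promoters that the table holds for it, and NSDHL, a dehydrogenase of sterol demethylation, has 5. In IDI1 and NSDHL a match on one strand overlaps a match on the other. In SREBF2, one of the SREBP genes themselves, the sterol element starts 133 bases before the start of the gene and an ATTGG follows at 106 bases. The table held 40 promoters for 29 of the 34 members and none for ACAT2, SQLE, FDFT1, FASN and ABCG1.

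Each motif was searched on both strands of these 250 bases, and a match is a run of letters, not a shown binding site. CCAAT was found in 13 of 18 promoters of sterol synthesis genes, 3 of 8 of fatty acid synthesis genes, 3 of 7 of the SREBP control group and 2 of 7 of the efflux group. Over all 35116 promoters in the table the share was 32.01%, and over the 13107 of genes that passed the filter on low values it was 33.1%. The sterol element TCACNCCAC was found in 1 of 40 member promoters and in 0.883% of all. The GC box GGGCGG was in 34 of 40, against 42.6% of all promoters and 63.2% of those of genes that passed the filter. The E-box CACGTG was in 3 of 40 (6.35% of all), and the LXR repeat DR4 was in none (0.0142% of all).

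Sterol synthesis, the largest group, held most of the calls when the 4 inhibitor libraries of a set (RN-1, GSK690) were compared with its 4 controls (DMSO, GSK690*). Changes are limma estimates of log2(FPKM + 1) with SE, adjusted p-values take in every gene tested (Benjamini and Hochberg), and a gene is said to have fallen or risen only where that p was under 0.05. Of the 17 enzymes, 7 fell in Kasumi-1 at 24 h, against 11.2% of all genes tested. At 72 h 13 of the 17 fell, against 12.7% of all genes. In SKNO-1 3 fell at 24 h (3.44% of all genes) and 5 at 72 h (4.16% of all genes). None rose in any set, where 9.69%, 13%, 5.64% and 6.91% of all genes did.

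The median change of the 17 enzymes was log2 -0.40 and -0.51 in Kasumi-1 and -0.35 and -0.39 in SKNO-1 at 24 and 72 h, while the median of all genes lay between -0.02 and -0.01. The estimate was below 0 in all 4 sets for 16 of the 17, HSD17B7 in Kasumi-1 at 24 h (log2 0.06) being the exception. Enzymes up to squalene and those after it had like medians (log2 -0.38 and -0.40 in Kasumi-1 at 24 h, -0.46 and -0.56 at 72 h). Summed over the 17 genes, expression went from 982 ± 99.8 to 718 ± 76.2 FPKM in Kasumi-1 at 72 h and from 1157 ± 93.5 to 913 ± 144 FPKM in SKNO-1 at 72 h (SD, n = 4 libraries per side).

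Leaving out 1 library moved the counts, and the share of all genes called lower moved too. In Kasumi-1 at 24 h that share was 5.61% to 9.49% in such fits, against 11.2% in the full fit. At 72 h it was 6.31% without DMSO replicate 1 and 12.8% without DMSO replicate 2, against 12.7%. The counts that follow therefore do not tell a loss among the members from one among all genes. For Kasumi-1 at 72 h the 33 tested members gave 19 calls, which became 10 without GSK690* replicate 2 and 11 without the first library of GSK690. The 3 calls in SKNO-1 at 24 h became 1 without DMSO replicate 1 or either GSK690* library, and 0 without DMSO replicate 2 or the first library of either inhibitor. They became 6 when RN-1 replicate 2 was dropped and 8 when GSK690 replicate 2 was. The 5 calls at 72 h became 0 without DMSO replicate 2 or the first library of either inhibitor. They became 1 when GSK690* replicate 2 was dropped, 3 when its replicate 1 was, and 9 when the second library of either inhibitor was. With DMSO alone or GSK690* alone as the control, none of the 33 passed in SKNO-1 at either time. Of all genes 1.49% and 2.54% were lower there with DMSO alone, and 0.32% and 0.597% with GSK690* alone.

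**Figure D1:**
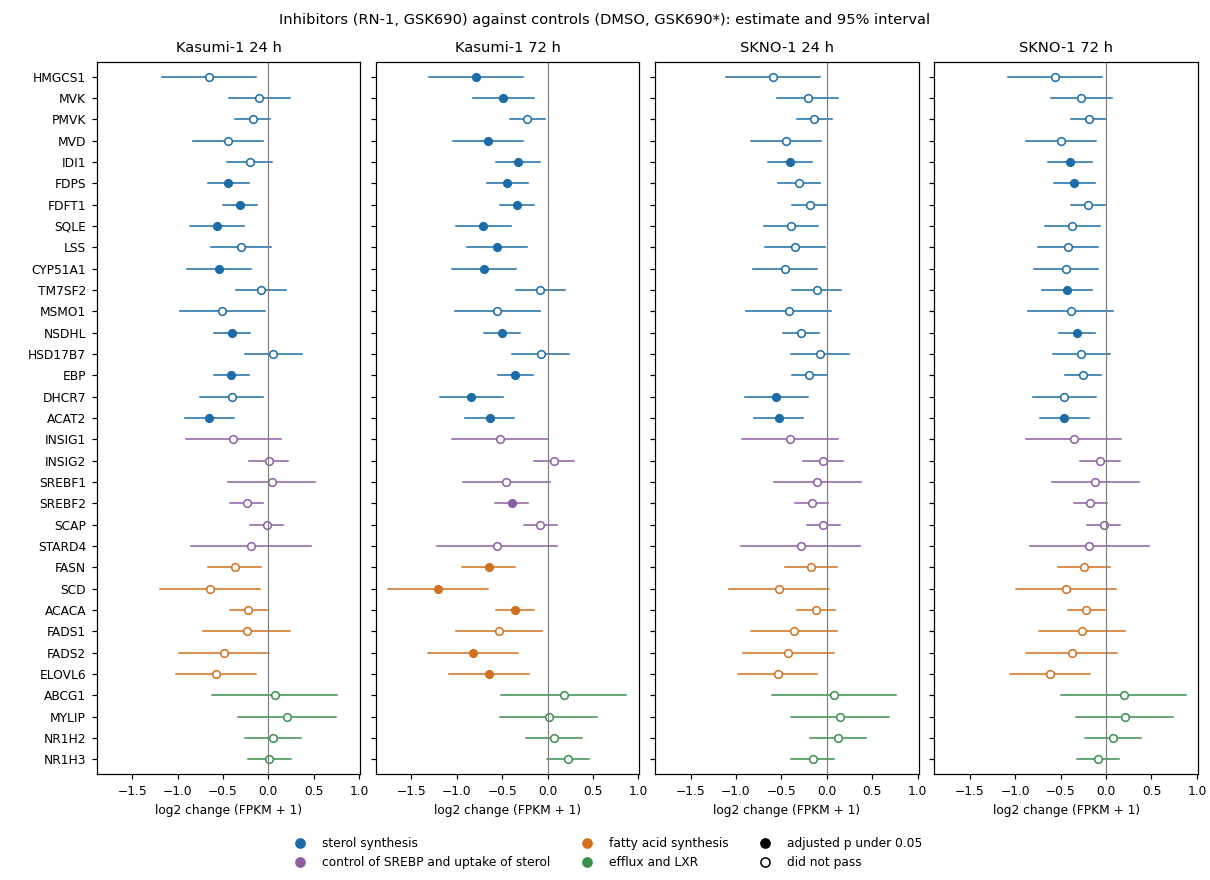
Change of each of the 33 tested members with the inhibitors, 1 panel per set of line and time. The x axis is the log2 change on FPKM + 1, points are limma estimates, lines their 95% intervals, and filled points have an adjusted p under 0.05. Filled points are all left of 0, with 7, 19, 3 and 5 of them from left to right.

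ACAT2, which joins acetyl-CoA units into acetoacetyl-CoA ahead of the mevalonate steps, was the member that fell in all 4 sets. The gene lies on chromosome 6 from 160181359 to 160200144 (hg19). In Kasumi-1 at 24 h its level was 27.6 and 35.2 FPKM with DMSO, 26.5 and 29.9 with GSK690*, 17.3 and 20.2 with RN-1, and 17.4 and 19.2 with GSK690. The 4 inhibitor libraries all lay below the 4 controls. At 72 h the values were 32.9 and 37.7, 27.5 and 37.2, 21.8 and 25.3, and 16.2 and 22.6 FPKM, in the same order of agents. In SKNO-1 they were 21.5 and 25.04, 24.4 and 24.3, 14.8 and 16.6, and 13.8 and 20.2 FPKM at 24 h. At 72 h in SKNO-1 they were 25.8 and 28.3, 28.1 and 30.0, 17.7 and 21.7, and 17.8 and 23.9 FPKM.

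In none of the 4 sets did the 2 sides of ACAT2 overlap. Of all 34 members, 15, 16, 11 and 4 had every inhibitor library below every control in the 4 sets, against 18.2%, 13%, 8.37% and 6.67% of all genes. The reverse order held for 1, 2, 1 and 0 members, against 14.4%, 15.6%, 6.8% and 8.57% of all genes. These were ABCA1 at 24 h and ABCG1 and NR1H3 at 72 h in Kasumi-1, and MYLIP at 24 h in SKNO-1, named after their values were seen. The log2 change of ACAT2 was -0.65 ± 0.13 and -0.64 ± 0.13 in Kasumi-1 (limma adjusted p = 0.00133 and 0.00106), and -0.53 ± 0.13 and -0.46 ± 0.13 in SKNO-1 (adjusted p = 0.0133 and 0.0249). The call in Kasumi-1 held without any 1 library. In SKNO-1 it ended at 24 h when DMSO replicate 2 (adjusted p = 0.069), the first library of GSK690 (0.124) or that of RN-1 (0.0742) was left out. At 72 h it ended when any of these 3 or either GSK690* library was left out (adjusted p = 0.0515 to 0.118).

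HMGCS1, the cytosolic synthase that makes HMG-CoA from acetoacetyl-CoA, lies on chromosome 5 from 43289496 to 43313614. At 72 h Kasumi-1 gave 62.2 and 72.2 FPKM with DMSO, 51.2 and 67.1 with GSK690*, 28.9 and 46.9 with RN-1, and 28.8 and 42.3 with GSK690. The 2 sides did not overlap, and the gene fell by 0.79 ± 0.25 on the log2 scale (limma adjusted p = 0.0241). Leaving out RN-1 or GSK690 replicate 1, or replicate 2 of DMSO or GSK690*, ended the call (adjusted p = 0.0681 to 0.108). At 24 h in Kasumi-1 the values were 33.1 and 58.3, 35.0 and 50.3, 23.4 and 31.6, and 22.4 and 32.05 FPKM, again without overlap, but the change of log2 -0.65 did not pass (adjusted p = 0.0688). SKNO-1 had higher levels, of 85.2 and 92.0, 89.9 and 110, 49.1 and 76.3, and 49.4 and 78.6 FPKM at 24 h. At 72 h they were 98.9 and 125, 79.0 and 126, 55.4 and 97.2, and 50.1 and 94.0 FPKM, and the sides overlapped. Neither change in SKNO-1 passed (log2 -0.59 and -0.56, adjusted p = 0.144 and 0.154).

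MVD decarboxylates mevalonate diphosphate (chromosome 16, 88718342 to 88729569). At 72 h Kasumi-1 gave 19.5 and 23.5 FPKM with DMSO, 18.5 and 25.8 with GSK690*, 15.5 and 12.3 with RN-1, and 11.8 and 14.2 with GSK690. All 4 inhibitor libraries were below the controls, and it fell by 0.66 ± 0.18 on the log2 scale (limma adjusted p = 0.0117; 0.0635 without GSK690* replicate 2). In the other sets the changes were log2 -0.45, -0.45 and -0.50 and did not pass (adjusted p = 0.0913, 0.133 and 0.0877). Kasumi-1 at 24 h gave 15.3 and 19.2, 10.6 and 17.6, 9.82 and 11.8, and 11.6 and 10.8 FPKM, in which GSK690* replicate 1 lay among the inhibitor libraries. SKNO-1 gave 22.2 and 21.8, 20.6 and 21.9, 17.5 and 17.6, and 11.6 and 16.3 FPKM at 24 h, without overlap. At 72 h it gave 21.6 and 37.1, 34.5 and 31.3, 14.9 and 27.7, and 19.6 and 25.6 FPKM, with overlap.

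SQLE, the monooxygenase that opens the sterol branch from squalene, fell in both Kasumi-1 sets. At 72 h it stood at 75.4 and 83.6 FPKM with DMSO, 63.5 and 81.9 with GSK690*, 43.8 and 56.9 with RN-1, and 36.9 and 48.5 with GSK690. At 24 h the values were 57.3 and 75.6, 62.1 and 69.5, 43.8 and 46.2, and 39.1 and 47.7 FPKM. At both times every inhibitor library lay below every control. The fall was 0.57 ± 0.14 on the log2 scale at 24 h and 0.71 ± 0.14 at 72 h (limma adjusted p = 0.00776 and 0.00106), and both calls held without any 1 library. In SKNO-1 the values were 104 and 104, 102 and 108, 65.4 and 86.7, and 66.1 and 104 FPKM at 24 h. At 72 h they were 113 and 115, 109 and 127, 84.5 and 100, and 73.2 and 104 FPKM. GSK690 replicate 2 reached the controls of SQLE at 24 h, and the changes of log2 -0.40 and -0.37 did not pass (adjusted p = 0.091 and 0.102).

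CYP51A1, which demethylates lanosterol (chromosome 7, 91741464 to 91772266), fell in both Kasumi-1 sets. At 72 h it stood at 22.8 and 27.5 FPKM with DMSO, 18.4 and 25.6 with GSK690*, 11.9 and 17.7 with RN-1, and 11.7 and 15.2 with GSK690. At 24 h the values were 16.5 and 22.3, 16.7 and 20.97, 11.9 and 13.7, and 11.9 and 13.6 FPKM. The falls were 0.70 ± 0.17 on the log2 scale at 72 h and 0.54 ± 0.17 at 24 h (limma adjusted p = 0.00404 and 0.0278). The call at 24 h ended when either GSK690 library, the first of RN-1, or replicate 2 of DMSO or GSK690* was dropped (adjusted p = 0.0508 to 0.116). SKNO-1 gave 37.7 and 37.4, 37.8 and 41.3, 21.8 and 31.1, and 23.1 and 37.4 FPKM at 24 h, and 43.8 and 49.6, 39.7 and 47.2, 30.8 and 38.7, and 25.3 and 38.9 FPKM at 72 h. The sides of CYP51A1 were apart in all 4 sets, by little in SKNO-1, where the changes of log2 -0.46 and -0.44 did not pass (adjusted p = 0.0942 and 0.102).

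DHCR7, the reductase of a last step to cholesterol (chromosome 11, 71139238 to 71163914), had the largest fall among the members of sterol synthesis. At 72 h its level in Kasumi-1 was 58.0 and 70.9 FPKM with DMSO, 59.0 and 73.2 with GSK690*, 28.1 and 44.9 with RN-1, and 31.1 and 42.1 with GSK690. The inhibitor mean was 56% of the control mean, and the fall was 0.84 ± 0.17 on the log2 scale (limma adjusted p = 0.000803). It passed in SKNO-1 at 24 h too, at 66.5 and 65.4, 61.6 and 66.6, 38.2 and 47.9, and 38.1 and 53.1 FPKM (log2 -0.56 ± 0.17, adjusted p = 0.038). That second call ended when any 1 control library or the first library of either inhibitor was dropped (adjusted p = 0.0668 to 0.224). The Kasumi-1 values at 24 h of 51.1 and 53.6, 43.6 and 51.2, 35.6 and 39.3, and 33.3 and 41.4 FPKM did not overlap, and the change of log2 -0.40 did not pass (adjusted p = 0.0883). In SKNO-1 at 72 h DHCR7 stood at 76.8 and 99.4, 80.3 and 86.6, 52.1 and 81.9, and 47.5 and 72.3 FPKM, with overlap (log2 -0.46, adjusted p = 0.0789).

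**Figure D2:**
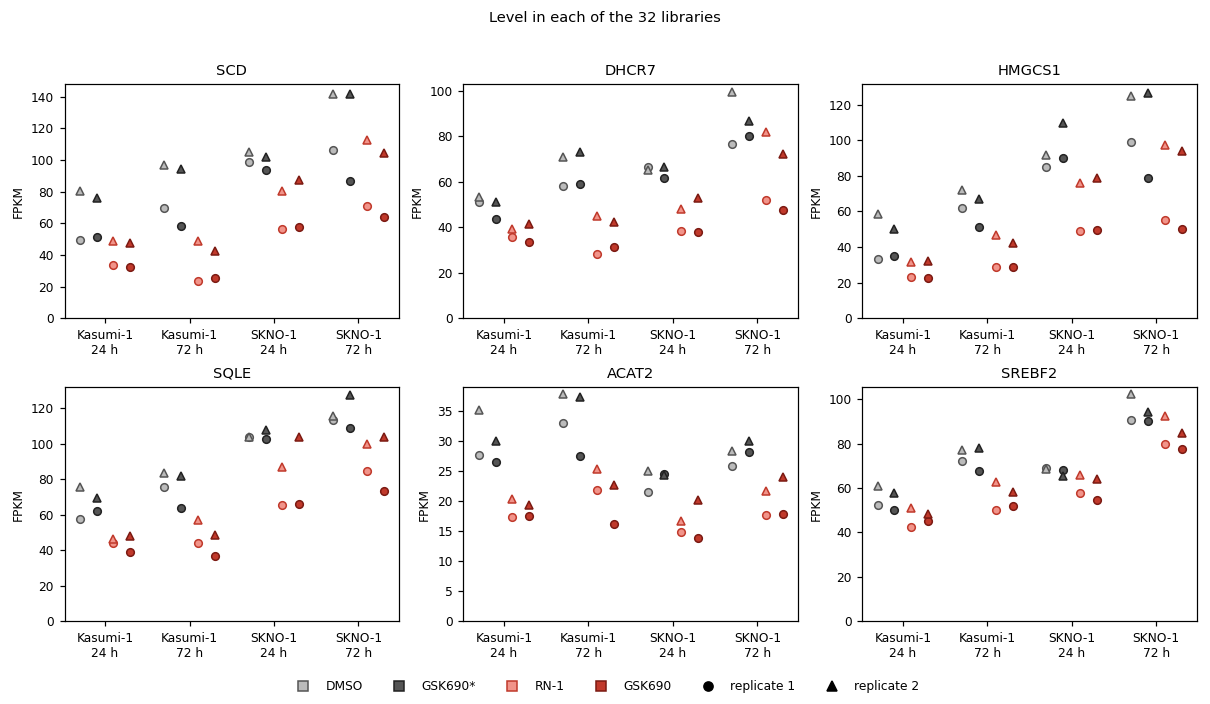
Level of 6 members in each of the 32 libraries, with FPKM on the y axis from 0 and the 4 sets on the x axis. Grey points are controls, red points are inhibitors, circles are replicate 1 and triangles replicate 2. SCD in Kasumi-1 at 72 h runs from 58.5 to 96.7 FPKM in controls and from 23.3 to 48.9 FPKM with an inhibitor.

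Of the other enzymes of sterol synthesis, FDPS and NSDHL fell in both Kasumi-1 sets and in SKNO-1 at 72 h, and IDI1 fell in Kasumi-1 at 72 h and in both SKNO-1 sets. FDPS went from 107 ± 11.6 to 78.7 ± 7.14 FPKM in Kasumi-1 at 72 h and from 132 ± 9.001 to 104 ± 12.6 FPKM in SKNO-1 at 72 h, without overlap in any of the 4 sets. Its log2 changes were -0.44, -0.44, -0.30 and -0.35. NSDHL went from 20.7 ± 0.933 to 14.3 ± 1.31 FPKM in Kasumi-1 at 72 h (log2 -0.51 ± 0.095, limma adjusted p = 0.000497), the lowest adjusted p of the members. IDI1 went from 78.8 ± 4.77 to 60.1 ± 12.5 FPKM in SKNO-1 at 24 h (log2 -0.41 ± 0.12, adjusted p = 0.0339).

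FDFT1, the squalene synthase, and EBP, a sterol isomerase, fell in both Kasumi-1 sets by 0.31 to 0.41 on the log2 scale. FDFT1 was the most abundant of the members of sterol synthesis, at 130 to 251 FPKM over all libraries. LSS, which closes the sterol ring, and MVK, the mevalonate kinase, fell in Kasumi-1 at 72 h (log2 -0.56 and -0.49). TM7SF2, a sterol reductase, passed only in SKNO-1 at 72 h, from 10.8 ± 2.84 to 7.67 ± 1.31 FPKM with overlap (log2 -0.43 ± 0.13, limma adjusted p = 0.0375). 

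Several of these calls also ended without 1 library. TM7SF2 missed the threshold without RN-1 or GSK690 replicate 1, or without replicate 2 of DMSO or GSK690* (adjusted p = 0.114 to 0.18). NSDHL in SKNO-1 at 72 h missed it without replicate 1 of RN-1, GSK690 or GSK690*, or without DMSO replicate 2 (adjusted p = 0.092 to 0.152). FDPS there and IDI1 in Kasumi-1 at 72 h and SKNO-1 at 24 h each missed it in 6 of 8 such fits, and IDI1 in SKNO-1 at 72 h in 5 of 8 (highest adjusted p = 0.182, 0.176, 0.253 and 0.148). In Kasumi-1 at 72 h MVK missed it in 5 of 8 fits, LSS in 3, and FDFT1 and EBP in 2 each (highest adjusted p = 0.153, 0.089, 0.0607 and 0.0532). FDFT1 in Kasumi-1 at 24 h missed it in 4 of 8 (highest 0.0984). 

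PMVK, MSMO1 and HSD17B7 passed in no set. PMVK, phosphomevalonate kinase, ranged from 12.9 to 40.1 FPKM, MSMO1, a sterol methyl oxidase, from 9.94 to 49.6 FPKM, and HSD17B7, a ketosteroid reductase, from 5.90 to 14.2 FPKM. MSMO1 had estimates of log2 -0.51 and -0.56 in Kasumi-1 with an SE of 0.22 (adjusted p = 0.116 and 0.0737). The change of HSD17B7 lay between log2 -0.27 and 0.06. Reads of the latter may be shared with a near copy in the genome, and its level is uncertain to that extent.

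Of the 6 enzymes of fatty acid synthesis 5 fell in Kasumi-1 at 72 h (12.7% of all genes did), a share no smaller than that of sterol synthesis. In the other 3 sets 0 of 6 passed in this fit by limma, which has no term for the replicate number. Within each replicate number of those sets, both inhibitor libraries lay below both controls for 5, 4 and 5 of the 6. The same held for 23.6%, 13.1% and 14.9% of all genes. At an unadjusted p under 0.05, 16, 22, 11 and 15 of the 33 tested members of all groups were lower, against 18.7%, 19.3%, 12.4% and 13.6% of all genes. None was higher at that p, where 14.9%, 18%, 11.5% and 12.8% of all genes were. The 6 estimates of this group were below 0 in all 4 sets, with medians of log2 -0.43, -0.65, -0.39 and -0.32. Their summed expression went from 445 ± 82.9 to 262 ± 52.5 FPKM in Kasumi-1 at 72 h. For SKNO-1 the sums were 421 ± 21.7 and 330 ± 37.7 FPKM at 24 h and 560 ± 98.5 and 442 ± 100 FPKM at 72 h, without and with an inhibitor.

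SCD, the desaturase that makes oleate from stearate, had the largest change of all members. It lies on chromosome 10 from 102106880 to 102124591. The Kasumi-1 level at 72 h was 69.4 and 96.7 FPKM with DMSO, 58.5 and 94.5 with GSK690*, 23.3 and 48.9 with RN-1, and 25.4 and 42.2 with GSK690. All inhibitor libraries were below all controls, their mean was 43.8% of the control mean, and the fall was 1.21 ± 0.27 on the log2 scale (95% interval -1.76 to -0.65, limma adjusted p = 0.00201). This call held without any 1 library. At 24 h the values were 49.3 and 80.3, 51.1 and 75.9, 33.8 and 48.6, and 32.5 and 47.3 FPKM, apart by less than 1 FPKM, and the change of log2 -0.64 did not pass (adjusted p = 0.0931). SKNO-1 gave 98.6 and 105, 93.8 and 102, 56.5 and 80.3, and 57.5 and 87.2 FPKM at 24 h, and 106 and 142, 86.6 and 142, 70.6 and 113, and 63.8 and 104 FPKM at 72 h. Those changes of log2 -0.52 and -0.45 did not pass either (adjusted p = 0.237 and 0.297). Within each replicate number, both inhibitor libraries of SCD still lay below both controls in SKNO-1 at both times, and this fit has no term for that number.

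FADS2, a desaturase of polyunsaturated fatty acids, lies on chromosome 11 from 61560451 to 61634826, a locus that overlaps that of FADS1. Whether reads were counted by strand is not stated, so the division of reads between the 2 genes is uncertain. In Kasumi-1 at 72 h FADS2 stood at 155 and 211 FPKM with DMSO, 136 and 213 with GSK690*, 79.6 and 134 with RN-1, and 77.6 and 116 with GSK690. RN-1 replicate 2 came close to GSK690* replicate 1, and the fall was 0.82 ± 0.24 on the log2 scale (limma adjusted p = 0.0153). Leaving out RN-1 or GSK690 replicate 1, or replicate 2 of DMSO or GSK690*, ended it (adjusted p = 0.0626 to 0.0824). At 24 h FADS2 stood at 100 and 140, 79.5 and 135, 63.1 and 97.9, and 61.8 and 101 FPKM in Kasumi-1, with overlap. In SKNO-1 it stood at 144 and 137, 143 and 124, 92.4 and 113, and 90.5 and 113 FPKM at 24 h, without overlap. At 72 h it stood at 161 and 251, 164 and 210, 127 and 199, and 110 and 175 FPKM. Its changes of log2 -0.42 and -0.38 in SKNO-1 did not pass (adjusted p = 0.296 and 0.335).

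FASN, the synthase that builds palmitate (chromosome 17, 80036213 to 80056208), stood in Kasumi-1 at 72 h at 87.0 and 114 FPKM with DMSO, 80.3 and 105 with GSK690*, 73.3 and 64.8 with RN-1, and 51.0 and 55.4 with GSK690. It fell by 0.65 ± 0.14 on the log2 scale (limma adjusted p = 0.00159), and the call held without any 1 library. At 24 h the values were 65.5 and 72.7, 44.5 and 66.0, 45.2 and 48.8, and 46.9 and 47.4 FPKM, with GSK690* replicate 1 below every inhibitor library. In SKNO-1 the FASN values overlapped at both times, at 135 and 129, 116 and 102, 127 and 104, and 91.3 and 104 FPKM at 24 h, and 120 and 185, 187 and 160, 115 and 154, and 126 and 152 FPKM at 72 h. The changes there were log2 -0.18 and -0.24 (adjusted p = 0.479 and 0.278).

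ACACA, the carboxylase that supplies malonyl-CoA, went from 28.7 ± 1.37 to 22.1 ± 1.32 FPKM in Kasumi-1 at 72 h (log2 -0.36 ± 0.099, limma adjusted p = 0.0103). ELOVL6, which elongates palmitate, went from 15.2 ± 1.79 to 9.32 ± 1.28 FPKM in that set (log2 -0.65 ± 0.21, adjusted p = 0.0277), and lost the call in 6 of 8 fits without 1 library (adjusted p = 0.0552 to 0.106), those without GSK690* replicate 1 and RN-1 replicate 2 being the exceptions. ELOVL6 had the largest estimate of the members in SKNO-1 at 72 h (log2 -0.62 ± 0.21, adjusted p = 0.0626). FADS1 passed in no set and ranged from 22.7 to 57.8 FPKM.

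**Figure D3:**
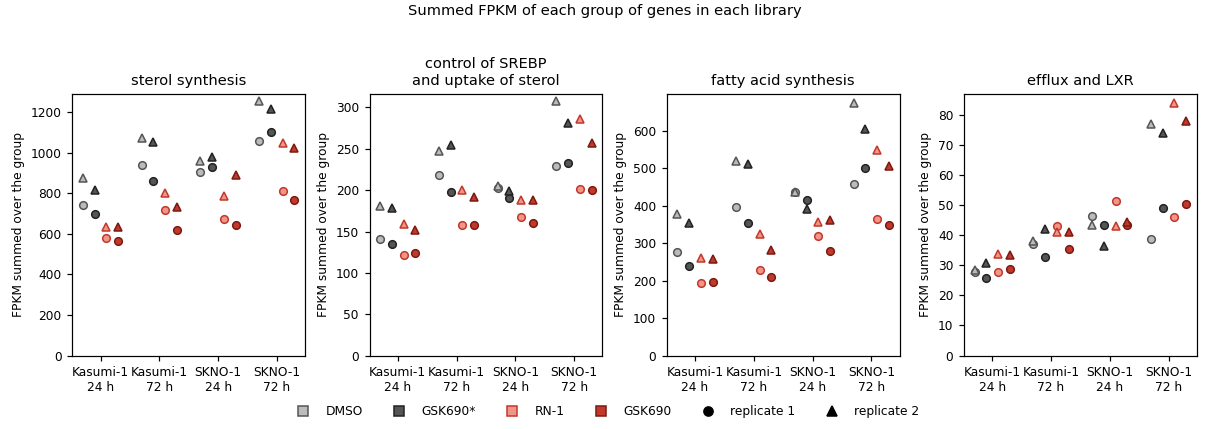
FPKM summed over the genes of each of the 4 role groups in each library, on y axes that start at 0, with the 4 sets on the x axis. Grey points are controls, red points inhibitors, circles replicate 1 and triangles replicate 2. The sterol synthesis sums in Kasumi-1 at 72 h run from 862 to 1075 FPKM in controls and from 617 to 802 FPKM with an inhibitor, and the efflux sums overlap in every set.

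Among the 6 genes that control SREBP or carry sterol, 1 fell in 1 set, Kasumi-1 at 72 h, a share near the 12.7% of all genes that fell there. SREBF2, the SREBP factor of sterol synthesis (chromosome 22, 42229108 to 42303312), stood in Kasumi-1 at 72 h at 72.3 and 77.1 FPKM with DMSO, 67.5 and 78.0 with GSK690*, 50.3 and 62.9 with RN-1, and 51.9 and 58.4 with GSK690. All inhibitor libraries lay below the controls, and it fell by 0.40 ± 0.087 on the log2 scale (limma adjusted p = 0.00201), a call that held without any 1 library. At 24 h in Kasumi-1 it stood at 52.5 and 61.1, 50.1 and 57.9, 42.6 and 51.2, and 45.1 and 48.4 FPKM. In SKNO-1 it stood at 69.0 and 68.8, 68.1 and 65.2, 57.6 and 65.7, and 54.6 and 63.8 FPKM at 24 h, and at 90.5 and 102, 90.3 and 94.4, 79.8 and 92.6, and 77.8 and 84.6 FPKM at 72 h. These 3 changes of SREBF2, log2 -0.24, -0.17 and -0.17, did not pass (adjusted p = 0.0582, 0.254 and 0.213).

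INSIG1, INSIG2, SREBF1, SCAP and STARD4 passed in no set. INSIG1, which holds SCAP in the endoplasmic reticulum, ranged from 17.3 to 66.3 FPKM, with estimates of log2 -0.39, -0.52, -0.41 and -0.36 and an SE of 0.25. In each of the 16 groups its second library was the higher one. STARD4, a carrier of sterol in the cytosol, ranged from 7.60 to 41.9 FPKM with an SE of 0.32. SREBF1, the SREBP gene of lipid synthesis, had an estimate of log2 0.04 in Kasumi-1 at 24 h and -0.45 at 72 h (adjusted p = 0.943 and 0.156) and ranged from 13.96 to 66.7 FPKM. SCAP, the escort of SREBP, stood at 23.9 to 46.0 FPKM with estimates between log2 -0.08 and -0.02. INSIG2 stood at 5.62 to 12.2 FPKM with estimates between log2 -0.07 and 0.08.

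The genes of efflux and LXR passed in no set, in either direction, by limma. ABCA1, the pump that loads cholesterol onto apolipoproteins, never reached 1 FPKM (0.00360 to 0.838 FPKM) and was not tested. In Kasumi-1 at 24 h ABCA1 stood at 0.00886 and 0.0200 FPKM with DMSO, 0.0135 and 0.0455 with GSK690*, 0.162 and 0.0817 with RN-1, and 0.0782 and 0.0946 with GSK690. The 4 inhibitor libraries were above the controls in that set, at levels too low to weigh without read counts. At 72 h the values of 0.0559 and 0.00360, 0.00934 and 0.00614, 0.0314 and 0.0393, and 0.0541 and 0.104 FPKM overlapped. ABCG1, a second pump (chromosome 21, 43619798 to 43717354), lay in Kasumi-1 at 72 h at 0.129 and 0.176 FPKM with DMSO, 0.137 and 0.154 with GSK690*, 0.259 and 0.300 with RN-1, and 0.241 and 0.395 with GSK690. Those sides of ABCG1 did not overlap, which held in the upward direction for 15.6% of all genes in that set, and the mean with inhibitors was 200.2% of the control mean. ABCG1 passed the filter only through the 16 SKNO-1 libraries, and at these Kasumi-1 levels the 1 FPKM added before the log flattens any change, so that its test in Kasumi-1 says nothing for or against a change.

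MYLIP, a ubiquitin ligase that removes a receptor for lipoprotein uptake, ranged from 9.61 to 25.8 FPKM, with estimates of log2 0.20, 0.01, 0.15 and 0.20 and an SE of 0.26. In SKNO-1 at 24 h its inhibitor libraries (15.0 to 15.7 FPKM) all lay above its controls (13.1 to 14.3 FPKM), as for 6.8% of all genes. NR1H2, an LXR receptor found in most cells, ranged from 10.995 to 28.4 FPKM with estimates of log2 0.06 to 0.12. NR1H3, the LXR receptor of liver and macrophages, ranged from 2.39 to 6.31 FPKM with estimates between log2 -0.16 and 0.22. The median over MYLIP, NR1H2 and NR1H3 was log2 0.06, 0.07, 0.12 and 0.08, against -0.40, -0.51, -0.35 and -0.39 for sterol synthesis. That contrast between the groups is a description and was not tested.

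The 2 inhibitors were compared at the same dose of 1 µM and the same times, each against its own control and then with each other. RN-1 against DMSO called 4 and 7 of the 33 tested members in Kasumi-1 at 24 and 72 h (9.08% and 12.1% of all genes, in either direction), and 0 in SKNO-1 at both times (2.25% and 3.47% of all genes). GSK690 against GSK690* called 0 and 8 in Kasumi-1 (3.94% and 9.75% of all genes) and 0 in SKNO-1 (1.63% and 2.83% of all genes). All of these calls were downward. In SKNO-1 7 and 4 members had an unadjusted limma p under 0.05 with RN-1, and 5 and 8 with GSK690, all lower. At that p 8.81% and 5.93% of all genes were lower with RN-1, and 3.76% and 6.98% with GSK690. With GSK690 6 members were lower at that p in Kasumi-1 at 24 h, against 10.5% of all genes.

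Among the members SCD had the largest change with RN-1 (log2 -1.25 ± 0.37, limma adjusted p = 0.0321) in Kasumi-1 at 72 h and with GSK690 stood at log2 -1.16 (adjusted p = 0.0537). DHCR7 fell with both, by 0.83 ± 0.23 and 0.84 ± 0.23 on the log2 scale (adjusted p = 0.0225 and 0.0251). SQLE, ACAT2, NSDHL and SREBF2 also passed with each inhibitor in that set. FASN passed with GSK690 (log2 -0.77 ± 0.20, adjusted p = 0.0147) and not with RN-1, and CYP51A1 passed with RN-1 (log2 -0.75 ± 0.24, adjusted p = 0.0449) and not with GSK690. At 24 h in Kasumi-1 RN-1 called ACAT2, EBP, FDPS and NSDHL, with changes from log2 -0.71 to -0.50.

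These counts of 2 against 2 libraries depended on single libraries. The 4 calls of RN-1 in Kasumi-1 at 24 h became 1 without DMSO replicate 1, where 2.3% of all genes were called, against 9.08% in the full fit. They became 0 without DMSO replicate 2 (4.29% of all genes) or without RN-1 replicate 1 or 2 (4.17% and 2.82%). At 72 h the 7 calls became 0 without either DMSO library or RN-1 replicate 1. Of all genes 4.94% and 8.61% were called without DMSO replicate 1 and 2, against 12.1% in the full fit. The 8 calls of GSK690 at 72 h became 5 when GSK690* replicate 1 or GSK690 replicate 2 was dropped, and 0 when the other library of either was. In SKNO-1, GSK690 at 24 h called 2 members without GSK690 replicate 2, and RN-1 at 72 h called 1 without DMSO replicate 1.

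Across the 33 members the change with RN-1 and the change with GSK690, which use no library in common, had a Pearson r of 0.84, 0.91, 0.87 and 0.86. Over all genes tested r was 0.81 to 0.85. These correlations are across genes, which are not independent, within sets that share cultures of the same time. Both changes were below 0 for 24, 28, 29 and 28 members.

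RN-1 against GSK690 directly called no member in any set by limma (0% of all genes in 3 sets and 0.00841% in Kasumi-1 at 72 h), and 2 members in Kasumi-1 at 72 h had an unadjusted p under 0.05. They were PMVK and EBP, named after their values were seen, and both stood higher with RN-1 (log2 0.31 and 0.39, adjusted p = 0.676 for each), as 4.58% of all genes were at that unadjusted p. With RN-1 replicate 2 of Kasumi-1 at 72 h left out, 1 member was called. For SCD the difference in Kasumi-1 at 72 h was log2 0.04 with a 95% interval of -0.74 to 0.82, and for ACAT2 0.28 (-0.10 to 0.66). For DHCR7 it was -0.03 (-0.51 to 0.46). Over the 33 members and 4 sets the intervals reached from log2 -1.12 to 1.18, so sizeable differences between the compounds were within the error.

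The isomer GSK690* against DMSO called no member in any set by limma, and 0% of all genes. None of the 33 members had an unadjusted p under 0.05 in any of the 4 sets, where 2.57%, 0.934%, 1.83% and 2.25% of all genes had one. The differences ran from log2 -0.34 to 0.30, and their 95% intervals reached from -1.24 to 1.13. SCD differed by log2 -0.02, -0.14, -0.06 and -0.14, with intervals such as -0.92 to 0.64 in Kasumi-1 at 72 h. GSK690 and GSK690* are isomers of one compound, and the contrast between them is the one given above, with 8 members lower in Kasumi-1 at 72 h. With 4 compound contrasts in 4 sets, 16 comparisons of agents were made, each adjusted over all genes tested.

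**Figure D4:**
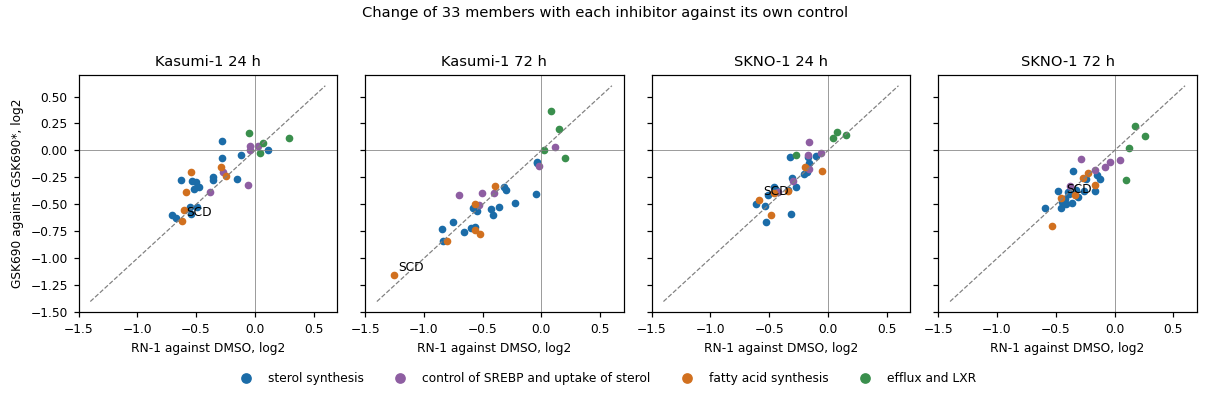
Change of the 33 tested members with RN-1 against DMSO (x axis) and with GSK690 against GSK690* (y axis), both as log2 on FPKM + 1, 1 panel per set, coloured by role, with the line of equal change dashed. Most points lie below 0 on both axes, for 24, 28, 29 and 28 of 33 members from left to right, and SCD stands apart at -1.25 and -1.16 in Kasumi-1 at 72 h.

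No member passed where the change with the inhibitors was compared between times or lines by an interaction term in limma, without a term for the replicate number. None had an unadjusted p under 0.05 in any of these 4 comparisons, against 1.29% to 14.8% of all genes. The share called among all genes was 0.202% for 72 against 24 h in Kasumi-1, 0% in SKNO-1, 1.12% for Kasumi-1 against SKNO-1 at 24 h and 3.47% at 72 h. SCD had a difference of log2 -0.57 (95% interval -1.35 to 0.21) between 72 and 24 h in Kasumi-1, and of -0.76 (-1.54 to 0.02) between Kasumi-1 and SKNO-1 at 72 h (adjusted p = 0.351). DHCR7 had log2 -0.43 (-0.92 to 0.05) between the times in Kasumi-1. The larger number of members called in Kasumi-1 at 72 h is therefore not shown by this fit to reflect a different change there. With a term for the replicate number, calls of members appeared between the times in Kasumi-1 and between the lines at 72 h. Of all genes 1.09% and 8.46% were called there, and the counts of members are given further on.

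Without inhibitors, the share of members whose level differed between the 2 lines was near that of all genes. In the 4 controls per side, 25 of the 33 tested members differed at 24 h and 22 at 72 h, against 69.1% and 70.8% of all genes. Both counts include ABCG1, which passed the filter only through its 16 SKNO-1 libraries, so its part in them is no test. At 24 h 6 were higher in Kasumi-1 and 19 lower. The 24 h count became 16 without Kasumi-1 DMSO replicate 1 or SKNO-1 GSK690* replicate 2. HMGCS1, MVK, CYP51A1 and MSMO1 were lower in Kasumi-1, with log2 differences of -1.11, -1.003, -0.98 and -1.05 at 24 h. FASN was lower too (log2 -0.96). PMVK, IDI1 and ACACA were higher in Kasumi-1 at both times (log2 0.74, 0.52 and 0.54 at 24 h). The medium differed between the lines with their serum, and its part in these levels cannot be told apart.

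TM7SF2 and ABCG1 had levels far apart in the 2 lines. TM7SF2 (chromosome 11, 64879316 to 64883856) stood at 30.8 to 35.1 FPKM in the Kasumi-1 controls at 24 h and at 6.14 to 6.98 FPKM in those of SKNO-1 (log2 2.20 ± 0.13, limma adjusted p = 1.64e-12). At 72 h the difference was log2 2.20 again. ABCG1 stood at 0.0765 and 0.167 FPKM with DMSO and 0.0163 and 0.216 FPKM with GSK690* in Kasumi-1 at 24 h, and at 12.6 and 10.5, and 9.99 and 8.73 FPKM in SKNO-1. These levels of ABCG1 are given as a description, with no test. In SKNO-1 at 72 h the second library of every agent was the higher one for ABCG1, at 7.17 and 24.7 FPKM with DMSO, 6.83 and 22.9 with GSK690*, 9.92 and 26.4 with RN-1, and 8.60 and 22.4 with GSK690. In that set the 2 cultures of each agent lay further apart than any 2 agents did for this gene.

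**Figure D5:**
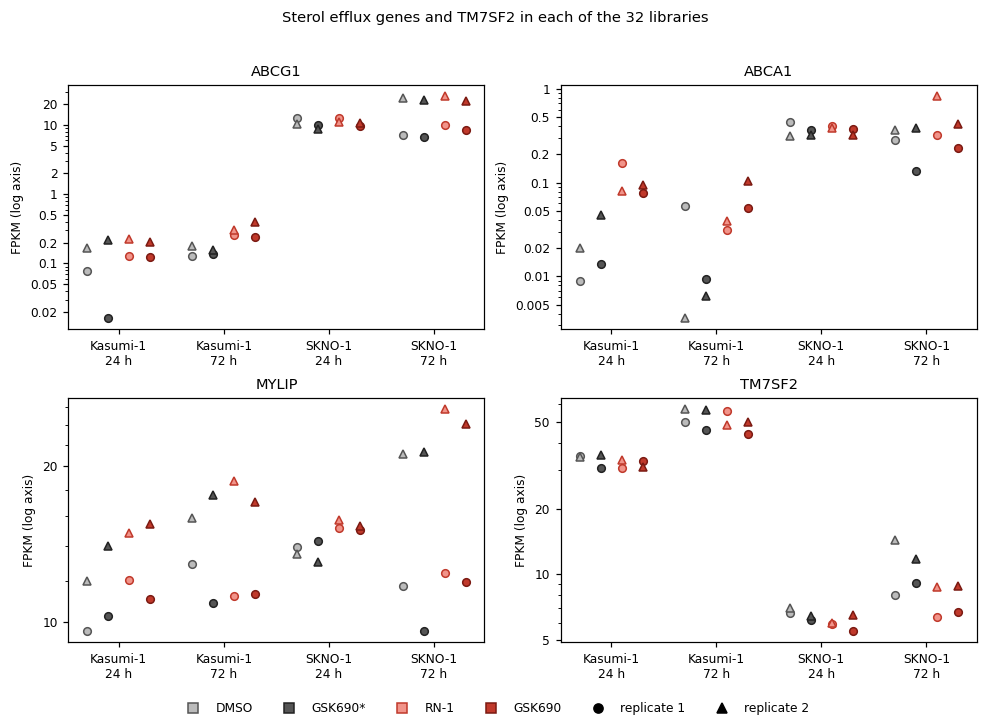
Level of ABCG1, ABCA1, MYLIP and TM7SF2 in each of the 32 libraries, with FPKM on log axes and the 4 sets on the x axis. Grey points are controls, red points inhibitors, circles replicate 1 and triangles replicate 2. ABCG1 lies at 0.395 FPKM or less in all Kasumi-1 libraries and at 6.83 FPKM or more in all SKNO-1 libraries, and TM7SF2 shows the opposite order.

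Other genes of the same pathways, from a list chosen by function, were read in the same fit. Of 17 other genes of sterol, isoprenoid and cholesterol transport, 3 rose and 3 fell in Kasumi-1 at 24 h, 2 rose and 2 fell at 72 h, and 2 fell in SKNO-1 at each time. Of all genes 9.69% rose and 11.2% fell in Kasumi-1 at 24 h, 13% and 12.7% at 72 h, and 3.44% and 4.16% fell in SKNO-1, so that in Kasumi-1 these counts are near the background. C14orf1 (ERG28), a scaffold for sterol demethylation, fell in all 4 sets, with log2 changes of -0.51, -0.51, -0.39 and -0.47. SOAT1, which esterifies cholesterol for storage, and NPC2, which moves it out of lysosomes, rose in Kasumi-1. NPC2 went from 83.6 ± 8.03 to 134 ± 13.6 FPKM at 72 h (log2 0.67 ± 0.086, adjusted p = 6.87e-06) and SOAT1 from 13.0 ± 1.64 to 19.3 ± 1.48 FPKM at 24 h (log2 0.54 ± 0.09, adjusted p = 0.00023). Unlike the members in this fit, these genes passed the interaction test, which compares the change with the inhibitors between the lines. SOAT1 passed it at 24 h (log2 0.61, limma adjusted p = 0.0154) and NPC2 at 72 h (log2 0.47, adjusted p = 0.0297). For both genes this test concerns the change and not the level. In controls the level of SOAT1 was lower in Kasumi-1 at 24 h (log2 -0.46), and that of NPC2 was higher there at 72 h (log2 0.57).

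Of 18 tested other genes of fatty acid metabolism, 2 rose and 3 fell in each Kasumi-1 set, 1 rose and 2 fell in SKNO-1 at 24 h, and 1 rose and 1 fell at 72 h, to be read against the same shares. SCD5, a desaturase related to SCD, rose in all 4 sets, by log2 0.52, 0.51, 0.43 and 0.57, opposite in sign to SCD. Its level was 4.49 ± 0.194 FPKM in the controls and 6.84 ± 0.434 FPKM with the inhibitors in Kasumi-1 at 72 h (adjusted p = 2.81e-05), where SCD stood at 34.9 ± 12.6 FPKM with the inhibitors. ACLY, which supplies cytosolic acetyl-CoA from citrate, fell in both Kasumi-1 sets and in SKNO-1 at 24 h (log2 -0.27, -0.40 and -0.18). ACSS2, which makes acetyl-CoA from acetate, rose in both Kasumi-1 sets (log2 0.43 and 0.43). Of 11 genes of fatty acid oxidation, none passed in Kasumi-1, and 1, PPARD, rose in SKNO-1 at both times (log2 0.71 and 0.61), from 0.302 ± 0.109 to 0.987 ± 0.115 FPKM at 72 h. PPARD reached 1 FPKM only in SKNO-1 libraries with an inhibitor (at most 1.34 FPKM), so it passed the filter only through libraries where it was high. Its rise is therefore given as a description.

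Proliferation genes and markers of maturation were read in the same comparisons. Of 20 proliferation genes, 20, 15, 5 and 1 fell in the 4 sets, with medians of log2 -0.45, -0.29, -0.23 and -0.13. Of all genes 11.2%, 12.7%, 3.44% and 4.16% fell, so that the last of these counts is near the background. Of 12 genes of MYC and ribosome biogenesis 8, 6, 1 and 1 fell, to be read against the same shares. None rose in either list. Of 10 monocyte and macrophage markers 7 rose and none fell in each set, where 9.69%, 13%, 5.64% and 6.91% of all genes rose. The control mean reached 1 FPKM for 5, 5, 4 and 4 of the 10, and the inhibitor mean for 9, 9, 8 and 8. Some may have passed the filter only through inhibitor libraries, so the count is a description and not a test. The summed level of the 10 markers was 70.8 to 106 FPKM in controls and 233 to 283 FPKM with inhibitors in Kasumi-1 at 24 h, and 75.0 to 98.0 and 183 to 245 FPKM at 72 h. In SKNO-1 it was 76.8 to 115 and 166 to 240 FPKM at 24 h, and 97.5 to 124 and 227 to 271 FPKM at 72 h. CD14, a defining marker of monocytes, reached at most 0.262 FPKM. The neutrophil markers summed to 418 to 572 FPKM in controls and 242 to 380 FPKM with inhibitors in Kasumi-1 at 72 h, and overlapped in the other 3 sets. In Kasumi-1 the sums of B cell markers (7.37 to 8.51 and 9.42 to 13.5 FPKM at 72 h) and of T and NK cell markers (1.61 to 2.98 and 3.84 to 4.76 FPKM) were higher with inhibitors at both times. The part of these changes in those of the lipid genes was not tested.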

How the data were processed

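Expression was given by the authors as FPKM per gene for 32 libraries, a deposited unit already scaled for gene length and library size. Per the submitters' processing notes TopHat 1.4.1, Cufflinks and hg19 were used, and strand and filters are not given in the sources used here. Groups came from the sample titles. All 32 columns were mapped, and 30 genes had missing values, 102 in all, which stayed out of the fit for those libraries.

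The filter asked for 1 FPKM or more in 2 or more libraries, which 11890 of 23073 genes and 33 of the 34 members passed. ABCA1 was left out by this filter. Values were taken as log2(FPKM + 1), a scale that understates the change of low genes, and the model was limma's (version 3.58.1, under R 4.3.3) with 1 mean for each of the 16 groups, 16 residual degrees of freedom and a trend on the mean. P-values were adjusted by Benjamini and Hochberg over all genes tested, with 0.05 as threshold. Replicates are labelled biological, with nothing more on their source, so p-values measure only the spread between these libraries. The fit was run on simulated data with independent noise. These held no effect shared by libraries of the same replicate number, so the run cannot check the fit on that point. Plots came from matplotlib 3.10.9 and tables from pandas 2.3.3 and numpy 2.4.6 (Python 3.11.15).

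The members and all gene lists were chosen with earlier results of these data known. Values in every library were written out for members that passed in any set, in order of the size of their change, up to 6 for sterol synthesis and 3 for each other role, and members that passed nowhere are given by range. Alternatives were another pseudocount, no filter, quantile and median-of-ratios scaling, smaller fits, either control alone, a term for the library name prefix, a replicate block, and each library left out in turn. NSDHL and EBP have a second entry off the primary chromosomes, at 0 throughout, which was not used. The values of 1 gene counted among those outside the 34 are not reported here.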

Additional observations from a re-analysis of the deposited data

How the results depend on the processing

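No result changed sign while called. Of the 34 calls of a member in a set with the inhibitors against controls, all 34 held with a pseudocount of 0.1 and with the replicate block. The number lost was 5 with median-of-ratios scaling, 8 with quantile normalization, 10 with no filter, 9 in fits on 8 libraries, 6 with 2 groups of 4, 13 with DMSO alone, 25 with GSK690* alone, and 81 of 272 over fits without 1 library. With GSK690* alone fewer libraries entered.

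Members called lower were 7, 19, 3 and 5 in the 4 sets, and counts over all genes moved with the settings too. In Kasumi-1 at 24 h the count was 13 in the fit on 8 libraries, 16 with 2 groups of 4 and 1 with GSK690* alone, while 15.1%, 17.7% and 3.04% of all genes were lower (11.2% in the fit reported). In Kasumi-1 at 72 h it was 8 with GSK690* alone (4.4% of all genes). There 1 member was called higher both with 2 groups of 4 and in the fit on 8 libraries, where 14.1% and 11.9% of all genes were higher. In SKNO-1 at 24 h it was 1 with no filter, quantile normalization, median-of-ratios scaling or the fit on 8 libraries, and 0 with either control alone, with 0.151% to 3.47% of all genes lower under these settings. In SKNO-1 at 72 h it was 2 with no filter or quantile normalization, 3 with median-of-ratios scaling, 1 with 2 groups of 4, 9 with a term for the library name prefix, and 0 in the fit on 8 libraries or with either control alone, with 0.429% to 5.72% of all genes lower. Median-of-ratios scaling moved the genes called higher and lower in SKNO-1 at 24 h from 671 and 409 to 794 and 287.

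RN-1 against DMSO called 2 members with quantile normalization in Kasumi-1 at 24 h (4 in the fit reported), with 8.96% of all genes called (9.08% in the fit reported). At 72 h, in place of 7, it called 1 with no filter, 2 with quantile normalization or 8 libraries, and 4 with median-of-ratios scaling. Of all genes 8.2%, 12.3%, 7.5% and 12% were called under these settings, against 12.1% in the fit reported. GSK690 against GSK690* called 1 at 24 h in the fit on 8 libraries (0 reported), with 5.74% of all genes (3.94% reported). At 72 h, in place of 8, it called 5 with no filter, 3 with quantile normalization and 4 with 8 libraries. Of all genes 6.77%, 10.4% and 5.89% were called there, against 9.75% in the fit reported.

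Without 1 library each, members called lower ran from 5 to 9, 10 to 21, 0 to 8 and 0 to 9 in the 4 sets, and members called higher from 0 to 0. In Kasumi-1 at 24 h 5.61% to 9.49% of all genes were lower in these fits, against 11.2% in the full fit. RN-1 against DMSO ran from 0 to 1 and 0 to 5 in Kasumi-1, and from 0 to 0 and 0 to 1 in SKNO-1. In Kasumi-1 at 24 h these fits called 2.3% to 4.29% of all genes, against 9.08% in the full fit. GSK690 against GSK690* ran from 0 to 0, 0 to 5, 0 to 2 and 0 to 0. RN-1 against GSK690 ran from 0 to 1 in Kasumi-1 at 72 h and was otherwise 0, as were GSK690* against DMSO and the interactions. Levels between the lines ran from 16 to 25 at 24 h and from 18 to 24 at 72 h.

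Replicates 1 and 2 share only a number in the labels. With the replicate block, members called lower were 21, 25, 19 and 22, against 17.2%, 18.5%, 9.33% and 11.2% of all genes. Those of fatty acid synthesis among them were 6, 6, 4 and 5 of 6. The block called 1 member higher in Kasumi-1 at 24 h and 1 in SKNO-1 at 72 h, where 14.2% and 11.6% of all genes were higher. Under the replicate block RN-1 against DMSO called 19, 22, 11 and 9 (19.7%, 21.4%, 8.81% and 8.97% of all genes) and GSK690 against GSK690* called 11, 25, 6 and 14 (12.7%, 20.7%, 5.35% and 8.96%). The block gave 1 call for 72 against 24 h in Kasumi-1 and 2 for Kasumi-1 against SKNO-1 at 72 h (1.09% and 8.46% of all genes). Deviations from the group means of libraries with the same number had correlations over genes of 0.13 to 0.45, 0.04 to 0.48, 0.29 to 0.52 and 0.14 to 0.70 in the 4 sets (6 pairs each). The cause of these differences between settings was not tested. Depth is unknown and its limits on low genes such as ABCA1 could not be given.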

Other observations

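The second library of a group often stood above the first for these genes. In Kasumi-1 at 24 h, 23 of the 33 tested members were higher in replicate 2 with all 4 agents, against 9.8% of all genes. The counts were 22, 13 and 23 in Kasumi-1 at 72 h and in SKNO-1 at 24 h and 72 h, against 9.82%, 9.08% and 18.7% of all genes. The median difference of replicate 2 from replicate 1 over the members was log2 0.21, 0.21, 0.15 and 0.39. For the 6 genes of fatty acid synthesis the counts were 6, 4, 2 and 5. The labels do not say what a replicate number shares across agents.

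Read within a replicate number, both inhibitor libraries lay below both controls in replicate 1 and again in replicate 2 for 20, 23, 16 and 22 of the 33 members. The share over all genes tested was 23.6%, 18.1%, 13.1% and 14.9%. Among the 17 enzymes of sterol synthesis the counts were 13, 13, 10 and 15, among the 6 of fatty acid synthesis 5, 6, 4 and 5, and among the genes of efflux and LXR there were none. The reverse order, both inhibitors above both controls, held for 1, 2, 1 and 1 of the 4 tested genes of efflux and LXR. It held for 18.8%, 19.5%, 12.2% and 14.2% of all genes.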
